A study of Homo sapiens with 6 samples.

Results

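Tetraspanins are small cell-surface proteins that cross the membrane repeatedly, and the transcripts of the family were examined here in melanoma spheres sorted on the B-cell antigen CD20. The members were the protein-coding genes whose GENCODE release 29 symbol is TSPAN followed by a number, together with CD9, CD37, CD53, CD63, CD81, CD82, CD151, UPK1A, UPK1B, PRPH2 and ROM1. This gave 33 genes of the 58395 in the table, spread over 13 chromosomes, with 7 each on chromosomes 11 and 12. Averaged over the 6 libraries, 22 of the 33 reached 1 FPKM and could be tested.

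The cells are labelled M14, a long-established melanoma line of human origin, and were cultured without attachment so that they formed floating spheres. The spheres were broken up, stained for CD20 and sorted by flow cytometry, which gave 3 CD20-positive and 3 CD20-negative fractions of the same line, and polyadenylated RNA of each was sequenced. The single comparison asks which transcripts differ between cells with and without surface CD20. Replicates carry the numbers 1 to 3 in both groups, and nothing in the labels ties a number to a culture of its own. The p-values therefore reflect only how far these samples spread, which may be technical.

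Tetraspanins act as organisers: they bind one another and laterally bind integrins, immunoglobulin-superfamily proteins, proteases and receptors, and gather them into membrane microdomains. CD9, CD63 and CD81 are the usual protein markers of extracellular vesicles, CD151 holds laminin-binding integrins at sites of adhesion, and the TspanC8 subgroup escorts the sheddase ADAM10 to the cell surface. In melanoma CD63 was first described as a melanoma-associated antigen, and CD82 is known as a metastasis suppressor. CD20, encoded by MS4A1, also crosses the membrane repeatedly but belongs to another family; in B cells it is found in complexes with tetraspanins including CD53, CD81 and CD82.

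Libraries held 15651172 to 17479732 fragments in the CD20-positive group and 16666544 to 17915936 in the CD20-negative group. MS4A1 measured 1.24, 0.966 and 1.28 FPKM in CD20-positive libraries, against 0.225, 0.263 and 0.403 FPKM in CD20-negative libraries, so the sorted antigen separated the groups at a low level. FPKM, the deposited unit, divides a gene's fragments by its exon length in kilobases and by library size. Mitochondrially encoded genes took 16.6 ± 4.39% of fragments in the CD20-positive group and 5.01 ± 0.739% in the CD20-negative group, and ribosomal protein genes took 3.67 ± 0.891% in the CD20-positive group and 7.40 ± 0.161% in the CD20-negative group (SD, n = 3 each; each an exact permutation test, two-sided, p = 0.1, the smallest that 3 against 3 can give). These shares moved with the group in every result that follows, and their part in those results was not tested. Of the 7 melanocyte-lineage markers, only PMEL and MITF reached a mean of 1 FPKM, with a summed level of 17.3 to 35.7 FPKM in the CD20-positive group and 11.1 to 21.4 FPKM in the CD20-negative group. SOX10, MLANA, TYR, TYRP1 and DCT were at or near 0, so several defining markers of the labelled lineage were absent or nearly so. The 5 epithelial markers summed to 389 to 487 FPKM in the CD20-positive group and 322 to 447 FPKM in the CD20-negative group, nearly all from the keratin genes KRT8 and KRT18. The 4 fibroblast markers summed to 36.4 to 50.6 FPKM in the CD20-positive group and 25.6 to 34.2 FPKM in the CD20-negative group, with COL1A2 and DCN near 0. Leukocyte markers summed to at most 0.183 FPKM in any CD20-positive and 0.0418 FPKM in any CD20-negative library, with CD3E at 0 and PTPRC near 0. The part of these marker levels in the results was not tested either.

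Ordered by FPKM, the family was expressed in steep tiers in both fractions. This order depends on the length of all annotated exons merged, which need not be that of the transcripts present. CD63, a tetraspanin of late endosomes, lysosomes and vesicles, was by far the most abundant and supplied 40.3 ± 1.95% of the summed tetraspanin FPKM in the CD20-positive group and 42.3 ± 1.03% in the CD20-negative group. The 5 most abundant members, CD63, CD9, TSPAN3, CD151 and CD81, together made up 72.8 ± 1.14% in the CD20-positive group and 72.5 ± 0.733% in the CD20-negative group. TSPAN13, TSPAN17, TSPAN6 and TSPAN1 completed the 9 members that averaged 10 FPKM or more. A further 13 members lay between 1 and 10 FPKM, from TSPAN4 at a mean of 9.68 FPKM down to TSPAN2 at 1.23 FPKM. The remaining 11 were below 1 FPKM.

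Neighbours in this order were often not separable. CD63 exceeded CD9 in every library, and CD9 exceeded TSPAN3 in every library. By contrast TSPAN3, CD151, CD81 and TSPAN13 had means of 28.5, 26.2, 25.3 and 24.6 FPKM, with ranges over the 6 libraries that overlapped. TSPAN13 in turn lay above TSPAN17 in every library, while TSPAN17 and TSPAN6 overlapped. All the tetraspanin transcripts together accounted for 0.173 ± 0.0126% of fragments in the CD20-positive group and 0.184 ± 0.0204% in the CD20-negative group (SD, n = 3 each).

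**Figure D1:**
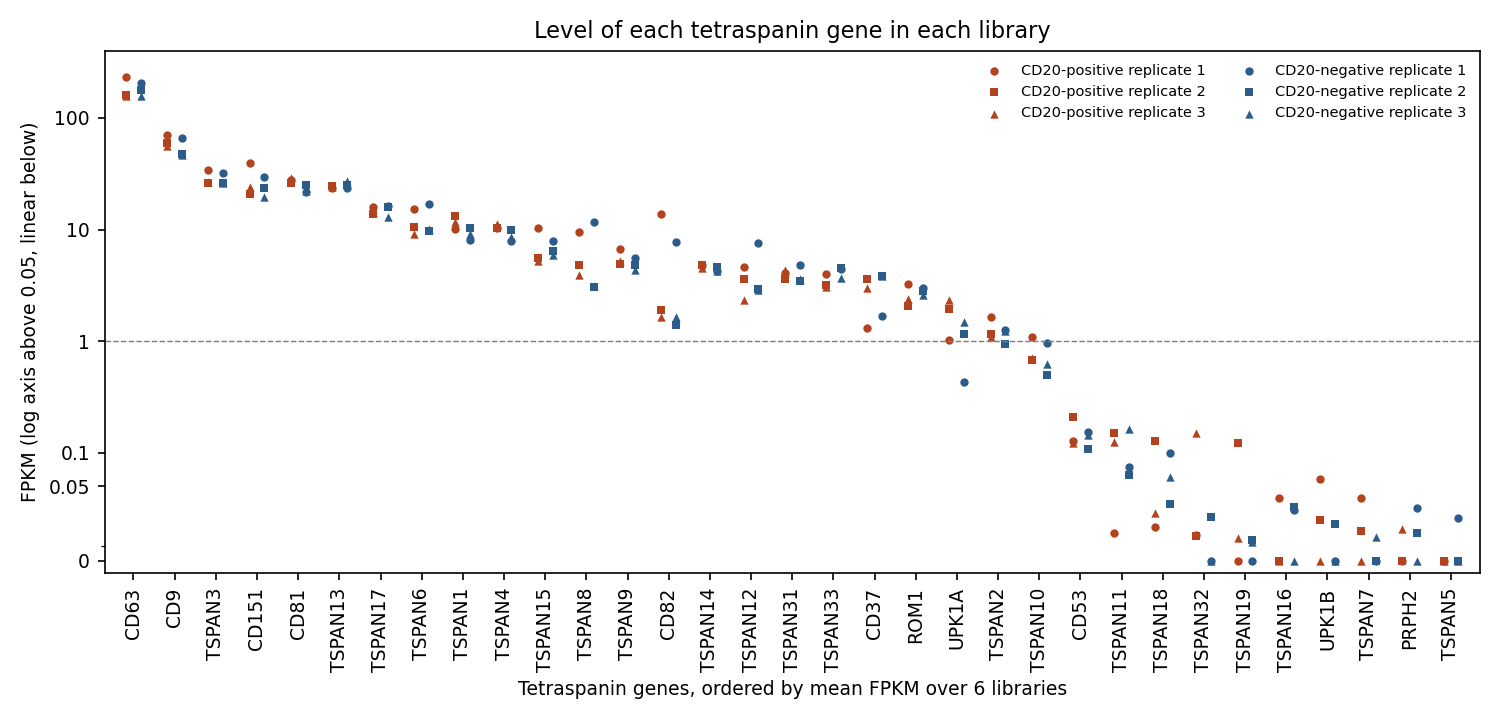
Expression of the 33 tetraspanin genes in the 6 libraries, ordered by mean level. Points are single libraries of the CD20-positive and CD20-negative groups, with replicates as circles (1), squares (2) and triangles (3), on an FPKM axis that is logarithmic above 0.05 and linear below it; CD63 sits highest at a mean of 182 FPKM, and 11 genes average below the dashed line at 1 FPKM.

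No tetraspanin passed the test between the fractions. The test was limma on log2(FPKM + 1) across all 13155 genes that averaged 1 FPKM or more, with Benjamini-Hochberg adjustment at 0.05, and it called 0 of the 22 tested members. Of all genes tested it called 1 gene, or 0.0076%. Libraries with the same replicate number deviated together, so the fit was repeated with the replicate number as a block, and this called 767 genes, or 5.83%, and again 0 of the 22 members by adjusted p. The smallest adjusted p among members was 0.598 (TSPAN1) without the block and 0.0924 (UPK1A) with it. At an unadjusted p under 0.05 limma counted 0 members without the block and 3 with it, namely UPK1A, TSPAN1 and CD82, while 9.20% and 21.3% of all genes tested passed the same limit.

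On the log2(FPKM + 1) scale, which understates changes of low genes, the estimated differences were modest, with wide intervals for some members. Log2 changes, CD20-positive minus CD20-negative, ran from -0.24 for TSPAN33 to 0.47 for UPK1A. With the block, the 95% interval lay within 1 log2 unit of 0 on this scale for 22 of 22 members, and without it for 18. The blocked intervals rest on 2 residual degrees of freedom and on a pairing by number that may be crossed. They also rest on a variance prior pooled over genes, worth a median of 10.2 further degrees of freedom over all genes tested. Their width thus comes largely from other genes, and how far the count of 22 depends on this prior was not tested. In FPKM, ratios of group means ran from 0.795 for TSPAN12 to 1.75 for UPK1A among tested members. Of the log2 changes, 15 were positive and 7 negative, with a median of 0.06 beside 0.00025 over all genes tested, of which 50.1% were positive. FPKM totals were 338125 to 512113 in the CD20-positive group and 276912 to 295179 in the CD20-negative group. Mitochondrially encoded genes made up 47.0 ± 6.80% and 18.7 ± 2.54% of them (SD, n = 3 each). Scaling each library to its FPKM total moved all genes together, to a median of -0.41 over all genes and -0.36 over the members, of which 1 was then positive. The members' median stood 0.06 above that of all genes in the fit reported and 0.05 above it after this scaling. With single libraries left out, this difference ran from -0.07 (without CD20-positive replicate 1) to 0.16 (without CD20-negative replicate 1), so its sign was not stable. In bulk RNA, fewer cells carrying a transcript and less transcript per cell cannot be told apart.

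**Figure D2:**
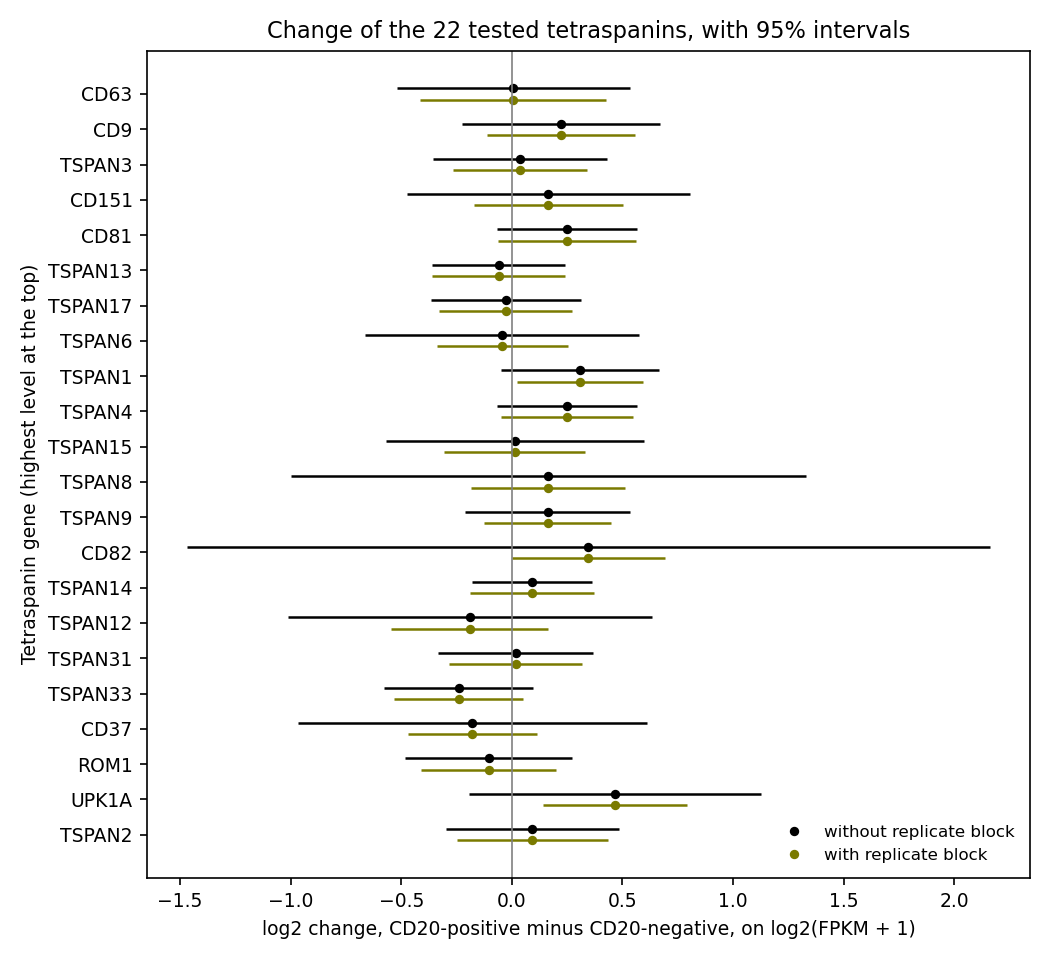
Log2 change (CD20-positive minus CD20-negative, log2(FPKM + 1)) for the 22 tested tetraspanins, with 95% intervals from the limma fits with and without the replicate block. Values lie between -0.24 and 0.47, and no member reached an adjusted p of 0.05 in either fit.

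Of the 3 extracellular vesicle tetraspanins 0 passed the test. CD63 averaged 184 ± 42.3 FPKM in the CD20-positive group and 181 ± 25.7 FPKM in the CD20-negative group (SD, n = 3 each), and CD81 was the one of the 3 whose groups did not overlap. By library, CD63 (ENSG00000135404, GRCh38 chromosome 12, 55725323 to 55729707, minus strand) measured 233, 159.8 and 159 FPKM in CD20-positive libraries, against 208, 179.5 and 156 FPKM in CD20-negative libraries. The groups overlapped, and both replicate 1 libraries were the highest. The log2 change was 0.0060, with a 95% interval of -0.52 to 0.53. CD9 (ENSG00000010278, chromosome 12, 6199715 to 6238271), which also takes part in cell adhesion and in sperm-egg fusion, measured 70.2, 59.9 and 55.9 FPKM in CD20-positive libraries, against 65.5, 47.6 and 47.0 FPKM in CD20-negative libraries. It was higher in the CD20-positive library of each of the 3 numbered pairs, although the groups overlapped, with a log2 change of 0.22 (95% interval -0.23 to 0.67).

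CD81 (ENSG00000110651, chromosome 11, 2376177 to 2397419) is expressed in most tissues and, beside its place in vesicles, takes part in B-cell signalling. It measured 27.8, 26.0 and 29 FPKM in CD20-positive libraries, against 21.8, 25.2 and 22.3 FPKM in CD20-negative libraries. Every CD20-positive library stood above every CD20-negative one, by a narrow margin in replicate 2. The mean was 27.6 ± 1.54 FPKM in the CD20-positive group and 23.1 ± 1.88 FPKM in the CD20-negative group (SD, n = 3 each), and the log2 change of 0.25 (SE 0.13) did not pass in limma (adjusted p = 0.628, and 0.354 with the replicate block). TSPAN4 (ENSG00000214063, chromosome 11, 842808 to 867116), a main constituent of migrasomes, the vesicles that migrating cells leave on their retraction fibres, was the other member whose groups did not overlap. It measured 10.3, 10.3 and 11.2 FPKM in CD20-positive libraries, against 7.84, 9.95 and 8.54 FPKM in CD20-negative libraries, and its log2 change was 0.25 (limma, adjusted p = 0.628, and 0.325 with the block). These 2 of 22 members, 9.09%, compare with 15.0% of all genes tested whose groups did not overlap in either direction (8.87% higher and 6.14% lower).

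Within pairs as numbered, the direction of the difference was fixed in some members and mixed in others; the values do not tell how replicates 2 and 3 pair. In 8 members the CD20-positive library was the higher one in 3 of 3 pairs: CD9, CD81, TSPAN1, TSPAN4, TSPAN9, CD82, TSPAN14 and UPK1A. In 3 members it was the lower one in 3 of 3: TSPAN13, TSPAN33 and CD37. These 11 members are 50% of those tested, where 42.2% of all genes kept 1 direction in the 3 pairs (21.8% higher and 20.4% lower). Such counts ignore the size of a difference, and some were close to 0. In units of log2(FPKM + 1), TSPAN13 differed by -0.0067 and -0.014 in pairs 1 and 2, and CD82 by 0.0043 in pair 3.

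None of the remaining abundant members passed the test. TSPAN3 (chromosome 15, 77041404 to 77083984) measured 34.0, 26.1 and 26.7 FPKM in CD20-positive libraries, against 32.1, 26.3 and 25.9 FPKM in CD20-negative libraries. TSPAN13 (chromosome 7, 16753535 to 16784536) measured 23.4, 24.6 and 24.2 FPKM in CD20-positive libraries, against 23.5, 24.8 and 27.1 FPKM in CD20-negative libraries. Both sets overlapped, with log2 changes of 0.04 (95% interval -0.36 to 0.43) and -0.06 (-0.36 to 0.24). TSPAN6 (chromosome X, 100627109 to 100639991), which has been tied to vesicle production and to dampening of innate RNA-sensing signals, measured 15.4, 10.6 and 9.19 FPKM in CD20-positive libraries, against 16.9, 9.66 and 10.2 FPKM in CD20-negative libraries. Its replicate 1 libraries were the 2 highest, and the log2 change was -0.04 (-0.66 to 0.58). TSPAN1 (chromosome 1, 46175073 to 46185958), a tetraspanin of secretory epithelia, measured 10.2, 13.2 and 11.7 FPKM in CD20-positive libraries, against 8.14, 10.4 and 9.12 FPKM in CD20-negative libraries. The groups overlapped by a single library each, and the differences within the 3 pairs were close to one another at 0.29, 0.31 and 0.33 units of log2(FPKM + 1). Its change of 0.31 had a 95% interval of -0.05 to 0.67 without the block and 0.02 to 0.59 with it (limma, adjusted p = 0.598 and 0.197).

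The TspanC8 subgroup comprises TSPAN5, TSPAN10, TSPAN14, TSPAN15, TSPAN17 and TSPAN33, which carry ADAM10 out of the endoplasmic reticulum and steer it to different substrates. Of its 6 members 4 were tested, 0 passed, and the median log2 change of the 4 was -0.0076. TSPAN17 had the highest FPKM, at 15.8, 13.7 and 14.4 FPKM in CD20-positive libraries, against 16.2, 15.9 and 12.8 FPKM in CD20-negative libraries. TSPAN15, which directs ADAM10 to N-cadherin, measured 10.3, 5.56 and 5.28 FPKM in CD20-positive libraries, against 7.84, 6.49 and 5.87 FPKM in CD20-negative libraries. In both genes the groups overlapped, and the log2 changes were -0.03 (95% interval -0.37 to 0.31) and 0.01 (-0.57 to 0.60).

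TSPAN14 had the narrowest spread of the family. It measured 4.81, 4.83 and 4.54 FPKM in CD20-positive libraries, against 4.27, 4.64 and 4.22 FPKM in CD20-negative libraries. Its merged exons span 17888 bases, against 5215 for TSPAN17, and the fragments of the 2 genes were close in number. In CD20-positive libraries TSPAN14 had 1300, 1384 and 1284 fragments, and TSPAN17 had 1248, 1142 and 1189. In CD20-negative libraries these were 1436, 1480 and 1494 for TSPAN14, and 1593, 1477 and 1325 for TSPAN17. The highest library of TSPAN14 was 1.14 times its lowest, at percentile 0.859 of all genes tested, and its log2 change was 0.09 (95% interval -0.18 to 0.36). TSPAN33, which is also expressed in activated B cells and erythroid precursors, had the lowest log2 change of the family at -0.24 (95% interval -0.58 to 0.10, limma, adjusted p = 0.655, and 0.331 with the block). It measured 3.97, 3.18 and 3.04 FPKM in CD20-positive libraries, against 4.41, 4.49 and 3.66 FPKM in CD20-negative libraries, and only 1 CD20-positive library reached into the CD20-negative range. TSPAN10, also called oculospanin for its expression in the eye, averaged 0.831 ± 0.235 FPKM in the CD20-positive group and 0.696 ± 0.241 FPKM in the CD20-negative group (SD, n = 3 each). TSPAN5 had 0 fragments in each of the 3 CD20-positive libraries, against 4, 0 and 0 fragments in CD20-negative libraries. A count of 0 allows up to 3 fragments, or 0.0267, 0.0252 and 0.0255 FPKM in the CD20-positive libraries. ADAM10 itself averaged 5.85 ± 0.910 FPKM in the CD20-positive group and 4.98 ± 0.238 FPKM in the CD20-negative group, a log2 change of 0.19 (95% interval -0.15 to 0.52).

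Many members were set apart by replicate 1. In 15 of 22 members, 68.2%, both replicate 1 libraries lay outside the range of the other 4, as did 44.3% of all genes tested. They lay above it in 12 members, beside 23.5% of all genes, and below it in 3, TSPAN13, CD37 and UPK1A, beside 20.8% of all genes. The labels do not say what distinguishes replicate 1, so these values are given as a description with no test. CD82, TSPAN8 and TSPAN12 had the highest ratios of replicate 1 to the other libraries and were chosen for description after their values were seen.

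CD82 (ENSG00000085117, chromosome 11, 44564427 to 44620363), which restrains cell migration and integrin signalling, measured 13.8, 1.89 and 1.65 FPKM in CD20-positive libraries, against 7.74, 1.4 and 1.65 FPKM in CD20-negative libraries. Both replicate 1 libraries were far above the rest, with a mean of 10.8 FPKM in replicate 1 and 1.65 FPKM in replicates 2 and 3, a ratio of 6.55. Its highest library was 9.91 times its lowest, at percentile 97.5 of all genes tested. The log2 change between the fractions was 0.35, with a 95% interval of -1.47 to 2.16 without the block and 0.0019 to 0.69 with it, and it was -0.46 without CD20-positive replicate 1 and 0.94 without CD20-negative replicate 1. It did not pass in limma (adjusted p = 0.922, and 0.232 with the block).

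TSPAN8 (chromosome 12, 71125085 to 71441898), a tetraspanin linked to invasion in melanoma and in carcinomas, measured 9.49, 4.85 and 3.89 FPKM in CD20-positive libraries, against 11.7, 3.05 and 3.15 FPKM in CD20-negative libraries. TSPAN12 (chromosome 7, 120787320 to 120858402), a coreceptor that amplifies Norrin signalling through FZD4, measured 4.66, 3.61 and 2.35 FPKM in CD20-positive libraries, against 7.55, 2.91 and 2.88 FPKM in CD20-negative libraries. In both genes the replicate 1 libraries were the 2 highest, and the direction of the difference within pairs was mixed. The ratio of replicate 1 to the mean of replicates 2 and 3 was 2.83 for TSPAN8 and 2.08 for TSPAN12. CD151 (chromosome 11, 832843 to 839831) had the same pattern at 39.7, 20.7 and 23.9 FPKM in CD20-positive libraries, against 29.8, 23.6 and 19.6 FPKM in CD20-negative libraries, a ratio of 1.58. Its log2 change between the fractions was 0.17 (95% interval -0.48 to 0.81) and was -0.10 without CD20-positive replicate 1.

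**Figure D3:**
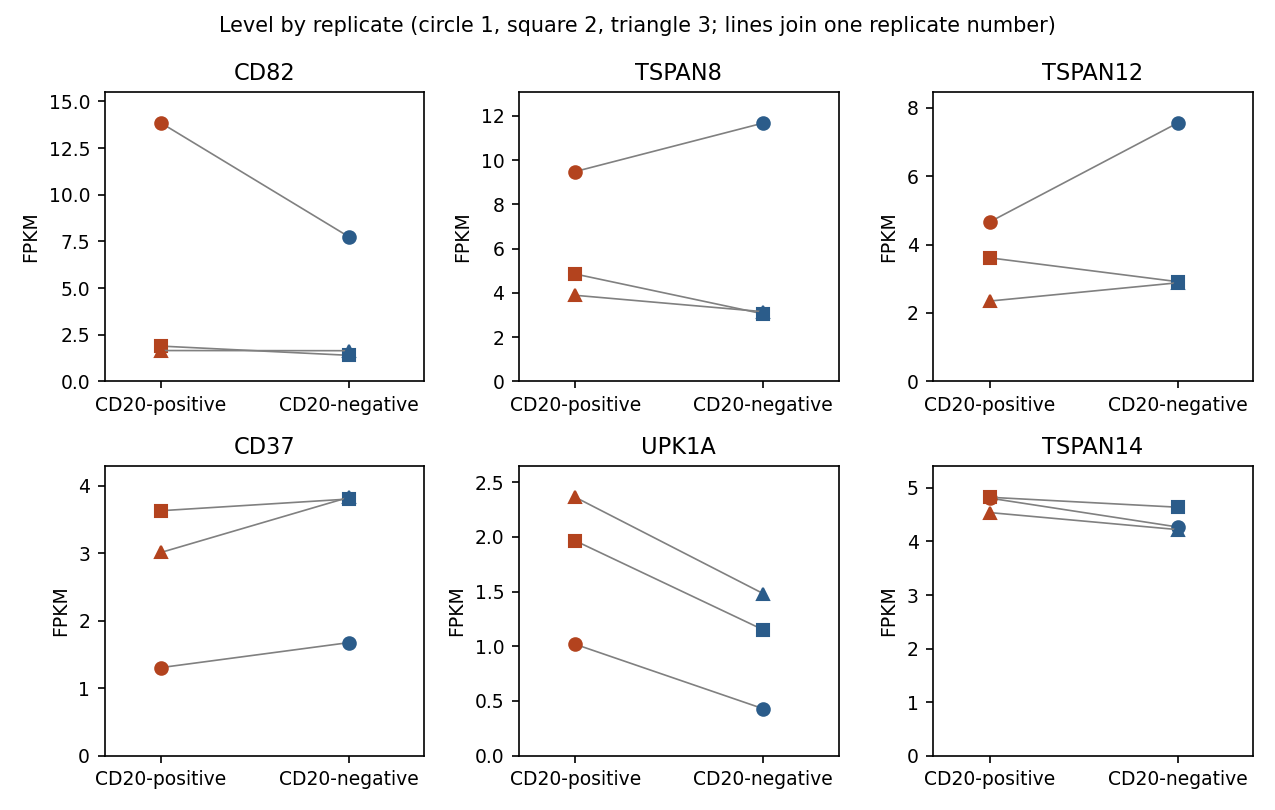
FPKM of 6 tetraspanins by sorted fraction (CD20-positive left, CD20-negative right), with 1 symbol per replicate number and lines joining libraries of the same number. Both replicate 1 libraries are highest for CD82, TSPAN8 and TSPAN12 and lowest for CD37 and UPK1A, while TSPAN14 stays between 4.22 and 4.83 FPKM.

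The proximal promoters of these 3 genes and of UPK1A are shown because these were the 4 tested members with the widest ratio of highest to lowest library, at 9.91 for CD82, 5.51 for UPK1A, 3.83 for TSPAN8 and 3.22 for TSPAN12. Each window, from RefSeq on GRCh38.p14, runs from 250 bases before to 50 bases after an annotated start, 5′ to 3′ on the gene's strand, and the most upstream window was taken where a gene had several. Capitals mark a GC box (GGGCGG or its reverse complement CCGCCC) or a TATA box (TATAAA or TTTATA), each searched on both strands. The CD82 window is chr11:44565413-44565712 (plus strand), that of TSPAN8 chr12:71157950-71158249 (minus strand), that of TSPAN12 chr7:120858095-120858394 (minus strand) and that of UPK1A chr19:35666267-35666566 (plus strand).
CD82: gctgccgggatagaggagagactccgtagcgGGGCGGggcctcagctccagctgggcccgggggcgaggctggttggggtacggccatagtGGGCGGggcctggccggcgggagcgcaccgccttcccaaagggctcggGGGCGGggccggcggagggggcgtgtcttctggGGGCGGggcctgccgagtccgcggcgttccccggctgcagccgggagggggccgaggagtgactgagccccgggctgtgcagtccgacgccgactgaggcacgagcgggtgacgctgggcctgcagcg
TSPAN8: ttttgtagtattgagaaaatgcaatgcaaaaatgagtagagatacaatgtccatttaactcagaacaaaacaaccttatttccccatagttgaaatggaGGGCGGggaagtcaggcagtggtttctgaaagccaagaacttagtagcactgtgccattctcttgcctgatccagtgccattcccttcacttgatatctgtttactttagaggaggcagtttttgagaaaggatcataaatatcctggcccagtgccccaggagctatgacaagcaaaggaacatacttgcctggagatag
TSPAN12: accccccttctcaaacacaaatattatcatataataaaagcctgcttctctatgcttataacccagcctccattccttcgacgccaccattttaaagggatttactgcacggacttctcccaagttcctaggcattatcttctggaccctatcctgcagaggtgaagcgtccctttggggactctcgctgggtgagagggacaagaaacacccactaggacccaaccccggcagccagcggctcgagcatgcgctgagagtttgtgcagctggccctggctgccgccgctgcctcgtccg
UPK1A: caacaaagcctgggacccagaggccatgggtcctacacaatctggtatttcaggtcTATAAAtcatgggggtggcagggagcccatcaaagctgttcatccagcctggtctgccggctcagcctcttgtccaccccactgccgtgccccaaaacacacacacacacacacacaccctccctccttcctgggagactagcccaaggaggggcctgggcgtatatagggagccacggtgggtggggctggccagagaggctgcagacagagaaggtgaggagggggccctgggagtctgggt

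The CD82 window held 4 GC boxes and 33 CpG dinucleotides, the TSPAN8 window 1 GC box and 1 CpG, the TSPAN12 window neither motif and 13 CpG, and the UPK1A window 1 TATA box and 4 CpG. The windows of CD82, TSPAN8 and TSPAN12 differed in these features. Windows were found for 25 of the 33 members. A GC box was present in 12 of the 25 and in 44.95% of all 35116 windows of the table, and a TATA box in 1 of the 25 and in 11.5% of all windows. The E-box CACGTG, which reads the same on both strands, was present in 1 of the 25 (TSPAN6) and in 7.26% of all windows. These matches describe the letters of the windows only, and position within a window was not considered. The UPK1A match to TATAAA lies in the upstream part of its window, far from the annotated start.

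Leukocyte tetraspanins were low or nearly silent in both fractions. CD37, which is expressed mainly on mature B cells, was the one tested member of this group. It measured 1.30, 3.63 and 3.01 FPKM in CD20-positive libraries, against 1.67, 3.80 and 3.83 FPKM in CD20-negative libraries. It was lower in the CD20-positive library of each pair, with a log2 change of -0.18 (95% interval -0.97 to 0.61, and -0.47 to 0.11 with the block). CD37 shares 319 exon bases, 7.67% of its exons, with TEAD2 on the opposite strand (11.4 FPKM), and whether counting used strand is not given in the sources used here.

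CD53, a pan-leukocyte tetraspanin, had 4, 7 and 4 fragments in CD20-positive libraries, against 6, 4 and 6 fragments in CD20-negative libraries, a mean of 0.144 FPKM over all 6. TSPAN32, which is expressed in blood cells, had 1, 1 and 9 fragments in CD20-positive libraries, against 0, 2 and 0 fragments in CD20-negative libraries. Its higher mean in the CD20-positive fraction therefore rests on 1 library. The 7 B-lineage markers read here summed to 1.72 to 3.42 FPKM in the CD20-positive group and 1.02 to 1.23 FPKM in the CD20-negative group, with CR2 at 0. These sums include MS4A1, on which the cells were sorted. Group means, CD20-positive against CD20-negative, were 0.510 against 0.279 FPKM for CD79B and 0.462 against 0.368 FPKM for CD22. They were 0.0711 against 0.0940 FPKM for CD79A, 0.0210 against 0.0226 FPKM for PAX5 and 0.0787 against 0.0816 FPKM for BLK. In each of these genes the groups overlapped.

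Among the uroplakins and photoreceptor tetraspanins, one member of each pair was expressed and the other was near 0. UPK1A (ENSG00000105668, chromosome 19, 35666516 to 35678483), which pairs with UPK2 in the plaques of the bladder lining, measured 1.02, 1.96 and 2.36 FPKM in CD20-positive libraries, against 0.428, 1.15 and 1.48 FPKM in CD20-negative libraries. The ranges overlapped, but within each pair the CD20-positive library was the higher, by 0.50, 0.46 and 0.44 units of log2(FPKM + 1). At levels near 1 FPKM the added 1 shrinks such differences, and their closeness to one another holds on this scale only. The ratio of the group means in FPKM was 1.75. The FPKM values rest on 21, 43 and 51 fragments in CD20-positive libraries, against 11, 28 and 40 fragments in CD20-negative libraries. Its log2 change of 0.47, the highest of the family with all libraries in the fit, had an SE of 0.28 without the block and 0.15 with it (limma, adjusted p = 0.657 and 0.0924). It was 0.24 without CD20-negative replicate 1 and 0.68 without CD20-positive replicate 1, and 0.45 to 0.48 in the blocked fits that left out a numbered pair. UPK1A shares 18.9% of its exon bases with its antisense gene UPK1A-AS1 (0.681 FPKM), and without strand use the reads over these shared bases cannot be told apart. Its partner UPK2 averaged 0.175 ± 0.107 FPKM in the CD20-positive group and 0.172 ± 0.113 FPKM in the CD20-negative group, and UPK1B stayed under 0.1 FPKM on average.

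ROM1, which with PRPH2 shapes the rims of photoreceptor discs, measured 3.26, 2.05 and 2.41 FPKM in CD20-positive libraries, against 3.01, 2.83 and 2.59 FPKM in CD20-negative libraries, with a log2 change of -0.11 (95% interval -0.48 to 0.27). PRPH2 averaged 0.0126 FPKM over the 6 libraries. ROM1 shares 24.8% of its exon bases with EML3 on the opposite strand (24.05 FPKM), and the same doubt over strand applies to those bases. It also applies to part of TSPAN31, whose end overlaps that of the cell-cycle kinase gene CDK4 on the opposite strand. TSPAN31 shares 25.4% of its exon bases with CDK4 (45.01 FPKM) and averaged 3.98 ± 0.371 FPKM in the CD20-positive group and 3.95 ± 0.716 FPKM in the CD20-negative group. The doubt also covers CD151, which shares 257 exon bases, 6.53% of its exons, with POLR2L on the opposite strand (64.3 FPKM). TSPAN9, known from platelets, and TSPAN2, known from oligodendrocytes, had log2 changes of 0.16 (95% interval -0.21 to 0.53) and 0.09 (-0.30 to 0.49).

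Beside CD53, TSPAN10 and TSPAN32, the low tier held TSPAN5, TSPAN7, TSPAN11, TSPAN16, TSPAN18, TSPAN19, UPK1B and PRPH2. The 9 members with a mean under 0.1 FPKM reached at most 0.163 FPKM and 23 fragments in any library, which is too few for a comparison. No member was at 0 in all 6 libraries. Low members stood beside high ones in the genome: TSPAN32 (0.0356 FPKM) lies 57976 bases from CD81 (25.3 FPKM), and TSPAN18 (0.0634 FPKM) lies 106101 bases beyond CD82 (4.70 FPKM). CD151 and TSPAN4, both expressed, are 2976 bases apart on chromosome 11.

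Tetraspanins work through the proteins they gather, so 55 partner genes in 8 lists were read from the same fits, of which 43 were tested. Without the block 0 passed. With it 5 rose and 0 fell in the CD20-positive fraction, beside 3.19% of all genes called higher and 2.64% called lower. They were 3 of the 5 laminin-binding integrin genes (ITGA3, ITGA7 and ITGB4), 1 of 3 tested immunoglobulin-superfamily partners (IGSF8), and 1 of 8 genes in the list of ADAM10, ADAM17 and their substrates (NOTCH3). In 10 of the 43 the groups did not overlap, all 10 higher in the CD20-positive fraction, beside 8.87% of all genes higher and 6.14% lower. The median log2 change over the 43 was 0.20, with 33 positive, beside 0.00025 over all genes tested. The lists were chosen with earlier results of these data known, so these counts beside all genes are a description and not a test.

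ITGB4, the beta chain of the hemidesmosome integrin that CD151 binds, measured 40.8, 37.4 and 50.2 FPKM in CD20-positive libraries, against 19.0, 21.3 and 18.6 FPKM in CD20-negative libraries. All CD20-positive libraries stood well above the CD20-negative ones. Its log2 change was 1.08 (SE 0.16; limma, adjusted p = 0.229 without the block and 0.00424 with it). ITGA7, a laminin receptor chain best known from muscle, measured 13.6, 14.7 and 20.3 FPKM in CD20-positive libraries, against 7.25, 9.64 and 8.70 FPKM in CD20-negative libraries, a log2 change of 0.84 (limma, adjusted p = 0.277 and 0.00963). ITGA3, the chain to which CD151 binds most firmly, measured 39.5, 28.6 and 31.5 FPKM in CD20-positive libraries, against 25.2, 20.01 and 17.3 FPKM in CD20-negative libraries, a log2 change of 0.65 (limma, adjusted p = 0.378 and 0.0239). Neither gene's groups overlapped. The partner chains ITGA6 and ITGB1 had overlapping groups and log2 changes of 0.25 (95% interval -0.21 to 0.71) and 0.20 (-0.29 to 0.68).

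IGSF8, which binds CD9 and CD81 directly, measured 36.9, 37.7 and 54.6 FPKM in CD20-positive libraries, against 20.8, 28.0 and 24.7 FPKM in CD20-negative libraries, a log2 change of 0.78 (limma, adjusted p = 0.343 without the block and 0.0186 with it). Its relative PTGFRN, another direct partner of CD9 and CD81, averaged 16.8 ± 3.00 FPKM in the CD20-positive group and 13.8 ± 1.83 FPKM in the CD20-negative group and did not pass (log2 change 0.26, 95% interval -0.17 to 0.68). NOTCH3, a receptor that ADAM10 can cleave, averaged 72.7 ± 8.47 FPKM in the CD20-positive group and 41.6 ± 1.84 FPKM in the CD20-negative group, a log2 change of 0.79 (limma, adjusted p = 0.232 and 0.0148). With single libraries or numbered pairs left out, these 5 log2 changes were 0.93 to 1.23 for ITGB4, 0.68 to 0.98 for ITGA7, 0.52 to 0.79 for ITGA3, 0.60 to 0.96 for IGSF8 and 0.71 to 0.88 for NOTCH3. The 5 genes were picked by their calls on these same libraries, so the ranges describe spread and are no independent check. The calls varied: in the blocked fit without replicate 2, 0 partners and 1 of all genes passed. Without replicate 3 these counts were 1 partner (ITGB4) and 331 of all genes, and without replicate 1 they were 11 partners, 10 higher and 1 lower, and 2141 of all genes. In these last 2 fits limma took the variance of 89.5% and 90.3% of genes wholly from a prior pooled over genes. Without replicate 2 that share was 0%, so the 3 counts are not alike in how they were reached. Scaled to the FPKM total with the block, where the median of all genes was -0.41, 1 partner (ITGB4) was called higher and 6 lower (CHMP4B, HBEGF, IFITM1, SDCBP, TSG101 and ZDHHC2), beside 0.684% of all genes called higher and 29.1% called lower.

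In the remaining partner lists no gene passed with or without the block: 0 of 9 in vesicle release, 0 of 9 among other membrane partners, 0 of 7 growth factor ligands and receptors, 0 of 1 B-cell and immune partners and 0 of 1 uroplakins outside the family. SDCBP, the syntenin that links CD63 and syndecans to vesicle budding, averaged 21.4 ± 8.22 FPKM in the CD20-positive group and 24.6 ± 4.95 FPKM in the CD20-negative group (SD, n = 3 each), with a log2 change of -0.24 (95% interval -0.88 to 0.41). The vesicle list had a median log2 change of -0.06, with 4 of 9 positive, while the 5 integrin genes had a median of 0.65 and the 22 tetraspanins one of 0.06.

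**Figure D4:**
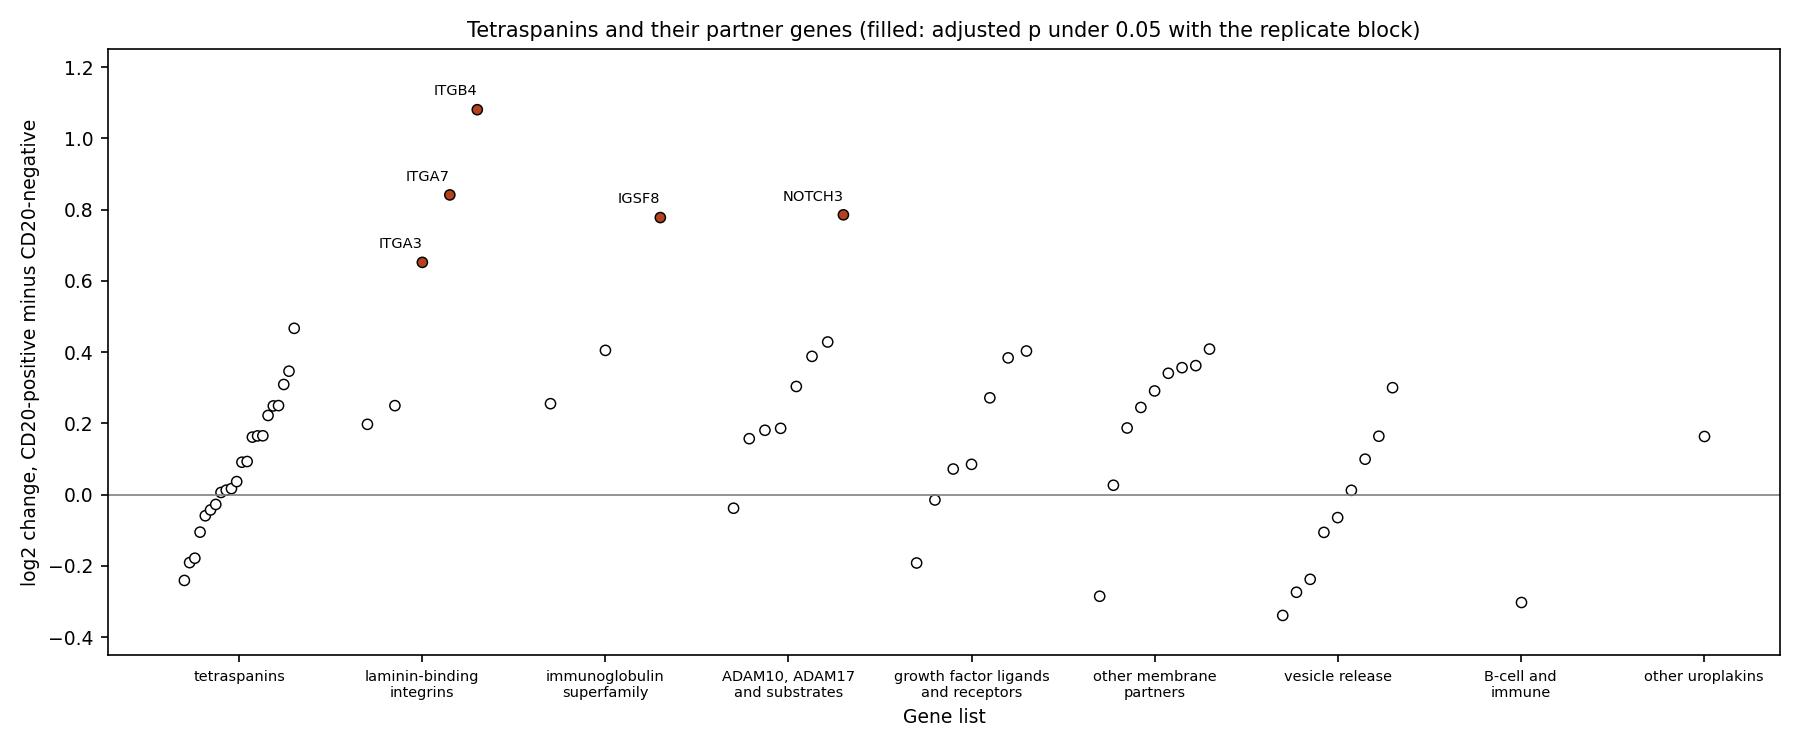
Log2 change (CD20-positive minus CD20-negative) of the 22 tested tetraspanins and of the tested genes in each of 8 partner lists, ordered by value within a list; filled points passed the limma test with the replicate block. The filled points are ITGB4 at 1.08, ITGA7 at 0.84, ITGA3 at 0.65, IGSF8 at 0.78 and NOTCH3 at 0.79, and the tetraspanins lie between -0.24 and 0.47.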

How the data were processed

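RNA of 6 sorted fractions was sequenced. The deposited table holds FPKM computed by the authors with library sizes of their own. Its header names no unit, which was read from the values: multiplied by GENCODE release 29 exon lengths, 98.1 to 98.6% of low values (up to 20 reads) were whole fragments within 0.02 fragments, which gave the fragment counts quoted. The tools were HISAT2, featureCounts 1.5.0 and DESeq2, and the build GRCh38 (hg38), per the submitters' processing notes. The sources used here do not give tool roles, settings or strand use. Among the identifiers, 58275 matched that annotation and 120 did not.

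Genes that averaged 1 FPKM or more were tested by limma 3.58.1 under R 4.3.3 on log2(FPKM + 1) values (trend and robust prior, no block), with Benjamini-Hochberg adjustment over all of them; this scale understates changes of low genes. The script was tested on simulated data. Deviations from the group mean correlated at 0.67, 0.24 and 0.51 between same-numbered libraries, each over 0.1, so the replicate number was also fitted as a block, which leaves 2 residual degrees of freedom. The prior pooled over genes added a median of 10.2 degrees of freedom in that fit. Pairing comes from these values and not from the labels, and CD20-negative replicate 2 correlated better with CD20-positive replicate 3 (0.43), as did CD20-positive replicate 2 with CD20-negative replicate 3 (0.40), so replicates 2 and 3 may be crossed and paired values hold for the labelled numbers only. Single values had two-sided exact permutation tests (scipy 1.17.1). Limits for counts of 0 cover counting error only. Alternatives covered the pseudocount, filter, scaling, prior, block, voom on recovered fragments and leave-outs.

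Members, partner lists and roles were chosen with earlier results of these data known. An item of the lists is not reported here. Named were members with a mean of at least 10 FPKM, those called or with groups that did not overlap, the TspanC8 subgroup, CD37, CD53, the uroplakins and the photoreceptor pair, and set partners; CD82, TSPAN8, TSPAN12, TSPAN31, TSPAN32, TSPAN9, TSPAN2, UPK2 and the replicate 1 pattern were chosen after values were seen.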

Additional observations from a re-analysis of the deposited data

How the results depend on the processing

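The count of called tetraspanins was 0 in 27 of the 28 settings, the fit reported without the block included. Many of these settings called 0 or 1 of all genes, so a count of 0 members says little there. At the filter of 10 FPKM only 9 members were tested. With the replicate block and scaling to the FPKM total 3 were called, all lower (CD63, TSPAN13 and TSPAN33), beside 29.1% of all genes called lower there. The count over all genes, 1 in the fit without the block, was 767 with the replicate block, 954 with the block at a filter of 10 FPKM, 3924 with the block scaled to the FPKM total, 1383 scaled to the FPKM total, 9 after quantile normalisation, 2 at a pseudocount of 10, 0 with no filter (1612 at an unadjusted p under 0.05 in limma), 0 with voom on recovered fragments (1208 unadjusted) and 1619 with voom and the block. Further scalings of the blocked fit, chosen after seeing the data, gave 1180 (fragment total), 943 (FPKM total without mitochondrial genes) and 914 (quantile). Leaving out single libraries gave 0 to 322 calls, the highest without CD20-positive replicate 1, and the block gave 2141 without replicate 1, 1 without replicate 2 and 331 without replicate 3. In some blocked fits limma took the variance of most genes wholly from a prior pooled over genes. The share was 93.4% at the filter of 10 FPKM, 90.3% without replicate 1 and 89.5% without replicate 3, against 0% without replicate 2. The cause of the differing counts was not tested.

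Log2 changes turned sign mainly under scalings that move all genes together. Scaled to the FPKM total, with and without the block, where the median of all genes was -0.41, values were -0.51 for CD63, -0.46 for TSPAN3, -0.44 for TSPAN15, -0.39 for TSPAN31, -0.33 for CD151 and TSPAN14, -0.29 for CD9, -0.27 for TSPAN8 and TSPAN9, -0.25 for CD81, -0.22 for TSPAN4, -0.20 for TSPAN2, -0.16 for TSPAN1, -0.056 for CD82, -0.31 for ITGB1, -0.24 for ADAM10 and -0.23 for ITGA6 and PTGFRN. Scaled to the fragment total, with and without the block (all genes -0.15), they were -0.18 for CD63, -0.15 for TSPAN15, -0.14 for TSPAN3, -0.13 for TSPAN31, -0.061 for TSPAN14, -0.014 for CD151 and -0.012 for TSPAN2. Without mitochondrial genes in the total (all genes 0.09), with and without the block, TSPAN13 was 0.042, TSPAN17 0.071 and TSPAN6 0.053. TSPAN15 was -0.017 after quantile normalisation with and without the block, and CD63 -0.0025 when scaled to the median.

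Leaving out single libraries gave -0.10 to 0.35 for CD151, -0.46 to 0.12 for CD37, -0.17 to 0.11 for CD63, -0.46 to 0.94 for CD82, -0.24 to 0.0019 for ROM1, -0.38 to 0.19 for TSPAN12, -0.26 to 0.16 for TSPAN15, -0.13 to 0.030 for TSPAN17, -0.012 to 0.16 for TSPAN2, -0.081 to 0.13 for TSPAN3, -0.052 to 0.13 for TSPAN31, -0.24 to 0.19 for TSPAN6 and -0.16 to 0.71 for TSPAN8. In the block, leaving out replicate 1 gave -0.072 for CD63, -0.16 for TSPAN15 and 0.011 for TSPAN12, leaving out replicate 2 gave 0.060 for TSPAN17, -0.018 for TSPAN8, 0.0067 for ROM1 and -0.016 for ITGB1, and leaving out replicate 3 gave -0.0025 for CD63, 0.0020 for TSPAN6 and -0.078 for TSPAN31. Depth limits the members under 0.1 FPKM.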
